A study of Mus musculus with 5 samples.

Results

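The genes described are 10 non-collagenous matrix genes of cartilage, namely Acan, Hapln1, Comp, Matn1, Matn3, Matn4, Cilp, Cilp2, Prg4 and Ucma. They were chosen by name, and each has exactly 1 row with its symbol alone, among 19938 genes with such a row. They were measured in condylar cartilage, which covers the head of the lower jaw in the jaw joint, of 129/Sv mice on 5 Affymetrix mouse gene 1.0 ST arrays. Of these, 2 came from DDR-1-KO mice, which lack the collagen-binding receptor tyrosine kinase discoidin domain receptor 1 (called knockout 2 and 5), and 3 from wild-type mice (called 3, 4 and 6). All 5 mice carry the same strain name. The sources used here give no allele, age or sex. The question was whether expression in this cartilage differs between mice without and with the receptor.

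Cartilage resists load because aggrecan, a proteoglycan laden with chondroitin sulfate, binds in great number to hyaluronan, and link protein holds each bond. Matrilins and cartilage oligomeric matrix protein are adaptors that tie collagen fibrils to each other and to proteoglycans. Lubricin, made by cells at the surface, lets the joint faces slide, and the condyle is a fibrocartilage whose surface layer is fibrous.

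Comp was the 1 member that passed the test, and it fell in knockout cartilage to 0.754 of its wild-type signal, a change of -0.41 on the log2 scale. That call was lost with the array date as a block, under each of 4 rescalings of the arrays (changes of -0.33 to -0.19) and without any 1 wild-type array. Ucma and Matn4 were below every wild-type array on both knockout arrays without passing. Acan was low in 1 knockout mouse and high in the other, and Hapln1 and Matn3 were low in knockout 2 alone. Prg4 overlapped between the genotypes. Over the 10 members, 8 had a change below 0, beside 51.1% of all genes, with a median change of -0.23 on the log2 scale, beside -0.0083 over all genes. The number below 0 was 6 under cyclic loess, under centring on the median and under centring with scaling, and the median stayed between -0.26 and -0.15.

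Values are log2 RMA signals, and a change is knockout minus wild type on that scale. The test was limma's moderated test, with Benjamini-Hochberg adjustment over all 19938 genes and a threshold of 0.05. At that threshold 1 of 10 members fell, beside 2.18% of all genes, and 0 rose, beside 1.55%, with 3 members lower and 0 higher at an unadjusted p under 0.05, beside 10.9% of all genes lower. Of the 9969 genes above the median level, which include Comp, 391 fell and 55 rose when tested on their own. As the labels describe no more of the animals than their names, p-values measure the spread of these mice and of their arrays without separating them. In bulk tissue, fewer chondrocytes and less RNA per chondrocyte cannot be told apart.

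The arrays limit what these genes can show. Ddr1 itself, the deleted gene, was at 5.96 on knockout 2 and 5.80 on knockout 5, against 6.02 on each wild-type array (change -0.14, SE 0.058, limma's adjusted p = 0.377). It was a little lower on both knockout arrays and did not pass, and the sources used here do not say which part of the gene was deleted, so its signal does not check the genotypes, and knockout here means the arrays labelled so. The wild-type arrays correlated with each other across genes at 0.984 to 0.993, while knockout 5 correlated with them at 0.903 to 0.927 and knockout 2 at 0.814 to 0.837. The knockout arrays correlated with each other at 0.803, so each was less like the other than like any wild-type array. The array names carry a date, and knockout 2 and wild type 3 share the earlier one. The 3 wild-type values were identical for 5 of the 10 members, beside 39.1% of all genes, and were all different for 1 member, Prg4. A group with identical values adds no spread of its own, so standard errors of such genes rest on the knockout arrays and on limma's moderation. Some of these values also recur in unrelated genes. The wild-type value of Acan was shared exactly with 47 to 49 other genes on each wild-type array, that of Ucma with 46 to 55 and that of Matn1 with 118 to 157, and the knockout 5 value of Matn1 with 192. The values of Comp, Matn3, Matn4, Cilp and Cilp2 were shared with no other gene on any array.

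Signals of genes that cartilage should not use gave a measure of the low end. The 1194 receptor genes of smell and pheromone sensing had a 95th percentile at 5.62 for knockout 2 and 5.93 for knockout 5, against 5.50 to 5.58 for the wild-type arrays. Cilp2 lay above that percentile on all 5 arrays, and Comp on knockout 2 and all wild-type arrays. Cilp lay above it on wild types 3 and 4 alone, and Ucma on wild type 3 alone. Acan, Hapln1, Matn1, Matn3, Matn4 and Prg4, 6 of the 10, lay below it on every array. The 6 chains of the cartilage collagens all lay above it on every array, and of all genes 21.0% and 16.0% did on the knockout arrays, against 31.0% to 35.3% in wild type. Probes differ between genes, so these positions describe signals and do not rank transcripts.

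**Figure D1:**
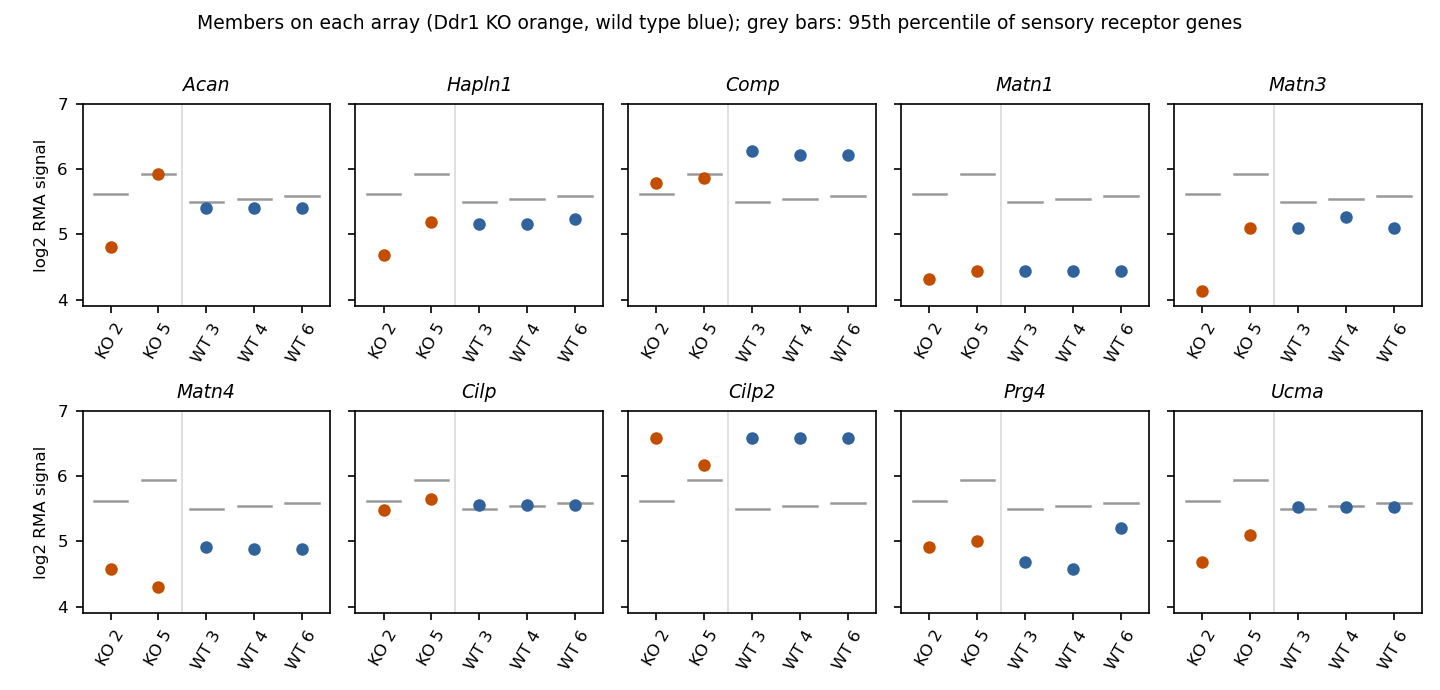
Log2 RMA signal of each of the 10 members on each array, with Ddr1 knockout in orange and wild type in blue. Grey bars mark the 95th percentile of the sensory receptor genes on that array. Comp, Matn4 and Ucma lie lower on both knockout arrays, and the knockout points of Acan lie on either side of its wild-type points.

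Acan encodes aggrecan, and its knockout values parted. It was at 4.81 on knockout 2 and 5.92 on knockout 5, against 5.40 on each wild-type array. The knockout mice differed from each other by 1.11, and the wild-type values lay between them. On average it differed by -0.036 (SE 0.37, limma's adjusted p = 1.0), with a 95% interval of -1.12 to 1.04, so neither a doubling nor a halving of signal could be told from no change. Within the earlier array date the difference was -0.59 and within the later date 0.52. Its mean change turned above 0 under several scalings of the arrays.

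Hapln1, the link protein that locks aggrecan to hyaluronan, was at 4.68 on knockout 2 and 5.19 on knockout 5, against 5.16, 5.16 and 5.23 in wild type. Knockout 2 was below all wild-type mice and knockout 5 was among them. Its change came to -0.25 (SE 0.17, limma's adjusted p = 0.399).

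The wider aggregate list, with the other link proteins, lecticans, hyaluronan synthases and the hyaluronan receptor Cd44, had 13 measured genes. None passed in limma, 0 had an unadjusted p under 0.05, 10 were lower and 3 higher (8 and 5 after cyclic loess), and the median change was -0.13. Has2, a hyaluronan synthase, was at 4.92 and 4.76 on the knockout arrays, against 4.70 on each wild-type array (change 0.14, adjusted p = 0.33). Hapln4, a link protein known from brain, was at 5.30 and 4.67 on the knockout arrays, against 5.56, 5.51 and 5.43 in wild type (change -0.52, adjusted p = 0.365). Both genes had knockout values clear of the wild-type values, and neither passed.

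Comp encodes a thrombospondin-family protein that binds collagen fibrils. It was at 5.78 on knockout 2 and 5.86 on knockout 5, against 6.27, 6.21 and 6.21 in wild-type mice 3, 4 and 6. Both knockout values were below all wild-type values, and the knockout mice differed from each other by 0.075. Knockout cartilage averaged 5.82 ± 0.053 (SD, n = 2) and wild-type cartilage 6.23 ± 0.035 (SD, n = 3). Its change came to -0.41 (SE 0.038, 95% interval -0.52 to -0.30), with limma's adjusted p = 0.0327. Limma's moderation draws on all genes, including those with 3 identical wild-type values. Without such genes the SE of Comp was 0.079 (limma's adjusted p = 0.0596), so the interval is narrower than that fit would give. Within the earlier array date the difference was -0.48, and within the later one -0.35. Wild types 4 and 6 held the same value, so the wild-type SD is not a full measure of the spread between mice.

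The call on Comp ended under several settings, while its direction stayed below 0 in all that were run. Limma's adjusted p was 0.0886 with the array date as a block, 0.0601 with arrays centred on their medians and 0.163 after cyclic loess, where the change was -0.23. With arrays centred and scaled the change was -0.19 (adjusted p = 0.232). Without wild type 3, 4 or 6 the adjusted p was 0.145, 0.185 or 0.205.

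Sums of the log2 signals of marker lists, as deposited, are given beside it. The 15 cartilage markers, which include 6 of the members, summed to 84.1 and 89.3 in knockout 2 and 5, against 91.5 to 91.7 in wild type. All 15 were lower, beside 51.1% of all genes, and 3 fell past the threshold (Comp, Col9a3 and Sox9), beside 2.18% of all genes. After cyclic loess Acan, Col2a1 and Col9a1 were above 0, and none of the 3 calls held. The 10 skeletal muscle markers summed to 54.5 and 54.6 on the knockout arrays, against 57.1 to 58.3 on the wild-type arrays, and the 9 of fibrous layer and tendon to 48.8 and 52.0, against 52.5 to 53.2. Of the muscle markers 8 were lower, 2 higher and 0 passed. Both knockout values were below all wild-type values for 4 of 10, beside 18.6% of all genes. At an unadjusted p under 0.05, 3 of 10 were lower, beside 10.9% of all genes. Those 3 were Tnnc2 (change -1.11, limma's adjusted p = 0.15), Acta1 (-0.84, adjusted p = 0.0789) and Mb (-0.58, adjusted p = 0.271), all proteins of muscle fibres. Ckm and Myh1 were near 0 (-0.0056 and -0.0076), and Myh2 and Myl1 were higher (0.048 and 0.33).

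The 7 macrophage and synovial lining markers had sums of 35.57 and 35.03 on the knockout arrays and of 34.5 to 34.7 on the wild-type arrays. Of them 3 were higher, 1 lower and 3 unchanged, with a median change of 0, and 0 passed. The sums were 42.7 and 43.4 against 42.4 to 42.8 for 8 neutrophil and marrow markers, and 24.94 and 23.96 against 24.7 to 25.3 for 5 of endothelium. For 6 measured bone markers they were 31.6 and 33.0 against 32.4, for 7 of osteoclasts 34.3 and 36.0 against 35.2 to 35.6, for 4 of adipocytes 20.1 and 21.7 against 21.3 to 21.7, and for 2 of erythroid cells 11.6 and 11.0 against 11.5. Of the genes on all these lists 1 passed, the adipocyte lipid droplet gene Cidec, while 2.18% of all genes fell at the 0.05 threshold. Cidec was at 5.04 and 5.12 on the knockout arrays, against 6.03, 6.20 and 6.03 in wild type (change -1.01, limma's adjusted p = 0.0231). The part of any of these in the fall of Comp was not tested.

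Among the other thrombospondins, 0 of 4 passed, and with Comp the 5 had a median change of -0.11 (0.023 under cyclic loess). At an unadjusted p under 0.05, 2 of the 5 were lower, beside 10.9% of all genes. Thbs3 was at 4.83 and 5.50 on the knockout arrays, against 5.85, 5.90 and 5.85 in wild type, with no overlap (change -0.71, limma's adjusted p = 0.244). Thbs4, a thrombospondin of tendon, was at 5.71 and 5.50 on the knockout arrays, against 5.71, 5.71 and 5.72 in wild type (adjusted p = 0.399).

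All 4 matrilins had changes below 0, beside 51.1% of all genes, with a median of -0.395. None passed in limma, while 1 was lower at an unadjusted p under 0.05, beside 10.9% of all genes. With arrays centred on the median 3 of the 4 were below 0, Matn1 being the exception. Matn4, the matrilin with the widest tissue range, was at 4.58 on knockout 2 and 4.29 on knockout 5, against 4.90, 4.87 and 4.87 in wild type. Both knockout values were lower than all wild-type values, and knockout 5 was the lower of the pair. Its change came to -0.45 (SE 0.098, limma's adjusted p = 0.126). Under every alternative scaling it stayed between -0.54 and -0.38.

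Matn3, whose variants cause skeletal dysplasia in people, was at 4.13 on knockout 2 and 5.09 on knockout 5, against 5.09, 5.26 and 5.09 in wild type. Knockout 5 had exactly the value of wild types 3 and 6, and knockout 2 was lower by about 1 log2 unit (-1.02 against the wild-type mean). The mean change of -0.54 (SE 0.33, limma's adjusted p = 0.399) therefore rests on knockout 2. Matn1, the classic cartilage matrix protein, was at 4.32 on knockout 2 and 4.44 on knockout 5, against 4.44 on each wild-type array. The only array that differed was knockout 2, by -0.12. Matn2, the matrilin that is no member, was at 4.20 and 4.52 on the knockout arrays, against 4.90, 4.61 and 4.61 in wild type (change -0.34, adjusted p = 0.399).

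Cilp and Cilp2 are secreted proteins of the matrix between chondrocyte territories, and Cilp is known to bind TGF-beta. Cilp was at 5.47 on knockout 2 and 5.65 on knockout 5, against 5.55 on each wild-type array, a change of 0.0068 (SE 0.062). As with Acan, the knockout mice lay on either side of wild type, here by under 0.1. Cilp2 was at 6.57 on knockout 2 and 6.16 on knockout 5, against 6.57 on each wild-type array, so the one lower array was knockout 5 (change -0.21, SE 0.14, limma's adjusted p = 0.399). It turned to 0.0069 under cyclic loess, and scaling the centred arrays gave 0.11.

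Ucma, a small secreted protein rich in gamma-carboxyglutamate and typical of the upper zone of growing cartilage, had the lowest change of the members. It was at 4.69 on knockout 2 and 5.10 on knockout 5, against 5.52 on each wild-type array. Both knockout values were below wild type, and knockout 2 was the lower of the pair. Its change came to -0.63 (SE 0.14, limma's adjusted p = 0.131), with -0.83 within the earlier array date and -0.42 within the later. Under the alternative scalings it ran from -0.65 to -0.55 and did not pass. With Comp and Matn4, Ucma made 3 of 10 members whose knockout values were both below all wild-type values, beside 18.6% of all genes. No member had both knockout values above, beside 13% of all genes.

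The enzymes that make gamma-carboxyglutamate were measured by 3 genes, of which 0 passed in limma and 0 had an unadjusted p under 0.05. Ggcx, the carboxylase, was at 4.62 and 4.38 on the knockout arrays, against 4.72 on each wild-type array (change -0.22, adjusted p = 0.322). Vkorc1l1, a vitamin K reductase, was at 6.09 and 6.86 on the knockout arrays, against 6.98 on each wild-type array (adjusted p = 0.399). Over the list of 14 CILP and other interterritorial proteins, 8 were higher and 6 lower (7 and 7 after quantile normalisation, 11 and 3 with arrays centred and scaled, and 9 and 5 under the other pair of scalings), and 0 passed. At an unadjusted p under 0.05 only Ucma, 1 of the 14, was lower, beside 10.9% of all genes. Scrg1, a small secreted protein of chondrocytes, was at 4.72 and 4.14 on the knockout arrays, against 3.89, 3.80 and 3.92 in wild type (change 0.56, adjusted p = 0.285). Snorc, a cartilage transmembrane proteoglycan, was at 5.43 and 5.80 on the knockout arrays, against 5.91 on each wild-type array (change -0.30, adjusted p = 0.369).

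The sequences just before the start sites of Ucma, Matn4 and Acan are shown, as the members beside Comp with both knockout values lower and as the member whose knockout values parted. They are the 250 bases before the RefSeq start on GRCm38.p6, and 8 of the 10 members matched that table, with 9 promoters. Capitals mark GGGCGG, the GC box, and CCAAT, on either strand.
Ucma, chr2:4975872-4976121, plus strand: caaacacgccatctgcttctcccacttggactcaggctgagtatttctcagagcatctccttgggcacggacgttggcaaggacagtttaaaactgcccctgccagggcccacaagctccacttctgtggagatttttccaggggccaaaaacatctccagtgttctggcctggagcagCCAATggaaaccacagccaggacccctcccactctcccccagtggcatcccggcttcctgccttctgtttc
Matn4, chr2:164405161-164405410, minus strand: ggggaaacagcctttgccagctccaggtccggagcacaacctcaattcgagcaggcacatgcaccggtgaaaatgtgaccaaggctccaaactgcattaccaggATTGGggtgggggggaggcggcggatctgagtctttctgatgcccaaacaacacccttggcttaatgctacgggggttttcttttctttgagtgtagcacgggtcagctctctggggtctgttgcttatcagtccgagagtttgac
Acan, chr7:79052976-79053225, plus strand: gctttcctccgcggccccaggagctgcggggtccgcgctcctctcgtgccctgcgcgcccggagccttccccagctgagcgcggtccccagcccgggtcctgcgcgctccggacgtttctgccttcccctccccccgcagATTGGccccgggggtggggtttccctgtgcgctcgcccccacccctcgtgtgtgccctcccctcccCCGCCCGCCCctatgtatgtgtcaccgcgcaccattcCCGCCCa
Ucma holds CCAAT from -71 to -67, and the Matn4 window shown holds it on the opposite strand from -146 to -142, counting the base before the start as -1. Matn4 has a second listed start, whose window (chr2:164404819-164405068, GC content 62.8%) holds no CCAAT but a GC box on the opposite strand from -6 to -1. Acan has the motif on the opposite strand from -110 to -106 and 3 GC boxes on that strand, of which those from -44 to -39 and from -40 to -35 overlap. GC content was 56.4% for Ucma, 54.4% for the Matn4 window shown and 74.4% for Acan. Over the 9 member promoters, 5 held GGGCGG and 4 held CCAAT, beside 32.7% and 33.8% of 32851 mouse promoter windows of this length. None of the 9 held TATAAA, found in 12.4% of all windows, or ACAAAG or ACAATG, forms of the site bound by SOX proteins, found on either strand in 25.2%. A match is a description of letters, and its absence says only that those letters are not in this window.

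Prg4 encodes lubricin. It was at 4.92 on knockout 2 and 5.0002 on knockout 5, against 4.68, 4.57 and 5.20 in wild-type mice 3, 4 and 6. The wild-type values ran over 0.63 and enclosed both knockout values, the widest wild-type range of any member. Its change came to 0.14 (SE 0.23, limma's adjusted p = 0.697), with a 95% interval of -0.52 to 0.80. Its 9-gene list of the superficial zone had 5 genes higher and 4 lower (7 and 2 under each of the 4 scalings), 0 past the threshold and 3 at an unadjusted p under 0.05. Of all 19938 genes, 1454 were higher and 2183 lower at that unadjusted p. Abi3bp, a matrix protein that binds collagen, was at 4.88 and 4.83 on the knockout arrays, against 4.30, 4.46 and 4.59 in wild type (change 0.41, adjusted p = 0.158). Clu, a secreted chaperone of superficial chondrocytes, was at 6.19 and 5.89 on the knockout arrays, against 6.57, 6.50 and 6.37 in wild type (change -0.44, adjusted p = 0.198). The genotypes did not overlap for Abi3bp or Clu, in opposite directions, while for Prg4 they did.

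The knockout mice differed in how many members were low. In knockout 2, 8 of 10 members were below all wild-type values, beside 41.4% of all genes. In knockout 5, 4 of 10 were, beside 31.2%, and Acan and Cilp were above all wild-type values. The median difference of the members was -0.40 within the earlier array date, where knockout 2 stood against wild type 3, and -0.044 within the later one. With 1 array a genotype on the earlier date, these differences have no test.

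**Figure D2:**
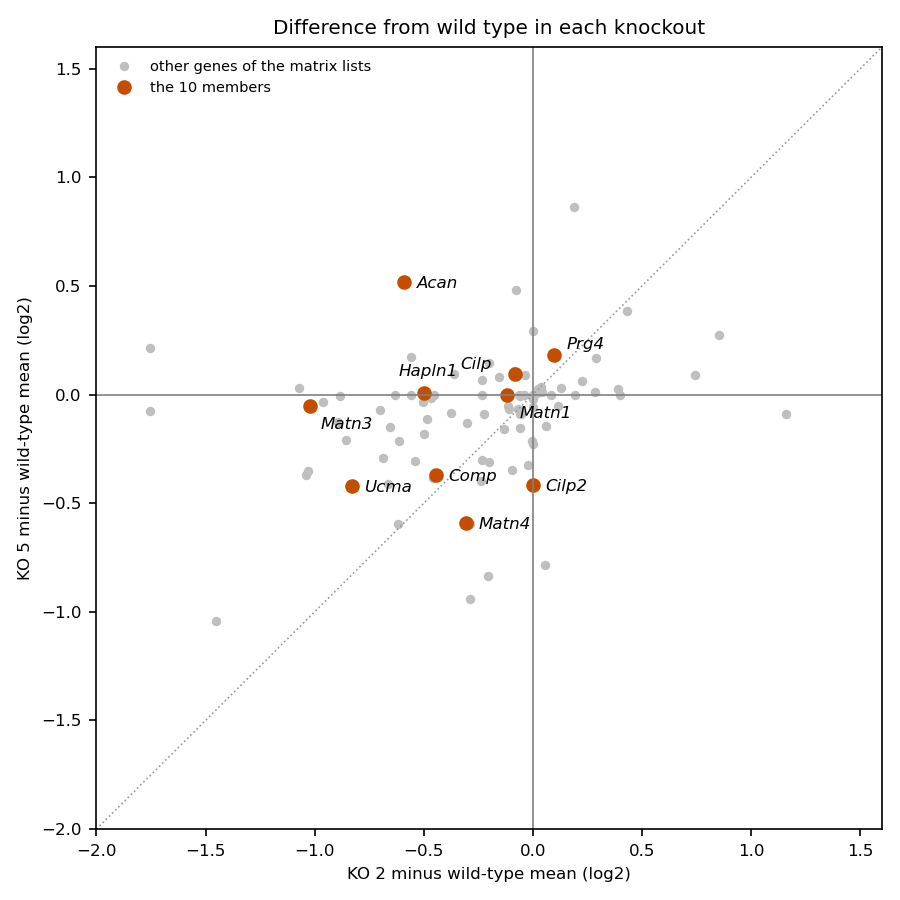
Difference from the wild-type mean on the log2 scale, knockout 2 on the x axis and knockout 5 on the y axis, with the 10 members in orange and 84 other genes of the matrix lists in grey. Comp, Ucma and Matn4 lie to the lower left, Acan to the upper left, and Matn3 and Hapln1 on the left near 0 for knockout 5.

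Scaling the arrays against each other moved some members and not others. Over all genes the median change was -0.0083 as deposited and lay between -0.069 and 0.064 under the scalings. Ucma, Matn3, Matn4, Comp and Hapln1 stayed below 0 and Prg4 and Cilp above 0 in all 4 scalings, while Acan and Cilp2 went to either side of 0 and Matn1 turned to 0.012 with arrays centred on the median. Knockout arrays had a narrower spread of gene values, with an SD over genes of 0.802 and 0.906, against 0.991 to 1.02 in wild type.

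**Figure D3:**
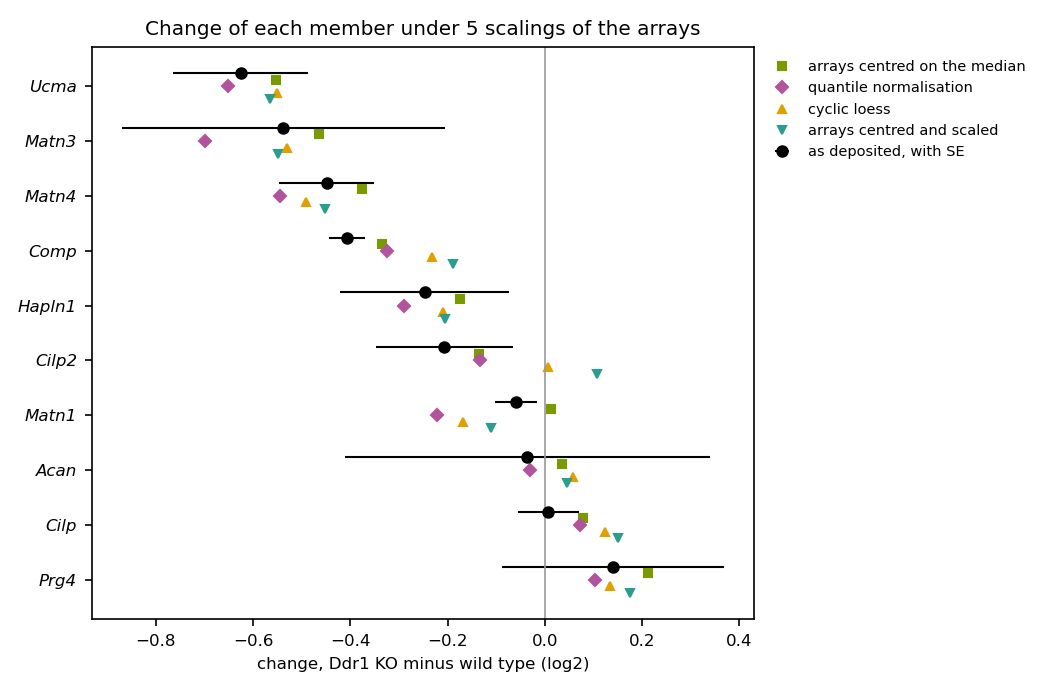
Change of each member, knockout minus wild type, on the log2 scale as deposited (black, bars are limma's SE) and after 4 scalings of the arrays (coloured marks). Ucma, Matn3 and Matn4 keep changes below -0.37 in all 5, and Comp shrinks to -0.19 with arrays centred and scaled.

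Genes that build the chondroitin sulfate of aggrecan or break down the matrix held 1 call in each list. Over all genes, 2.18% fell at the 0.05 threshold and 51.1% had a change below 0. Of 24 measured genes of chondroitin sulfate synthesis and sulfate supply, 19 were lower, 4 higher and 1 the same, with a median of -0.097. With arrays centred and scaled 13 were lower and 11 higher. The single call was Xylt1, the enzyme that starts the sugar chain, which fell by 0.15 (SE 0.017, limma's adjusted p = 0.0459), at 5.76 and 5.74 on the knockout arrays, against 5.89, 5.90 and 5.89 in wild type. Cyclic loess left 0.0053 (adjusted p = 0.972), and scaling the centred arrays gave 0.047. Chst11, the 4-O-sulfotransferase of chondroitin, was at 5.04 and 5.21 on the knockout arrays, against 5.34 on each wild-type array (change -0.21, adjusted p = 0.192).

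Of 13 measured genes of matrix turnover 11 were lower and 2 higher (8 and 5 with arrays centred and scaled), with a median of -0.27 that stayed between -0.28 and -0.19 under the scalings, and 1 passed. That was Hyal2, a hyaluronidase, at 5.36 and 5.29 on the knockout arrays, against 5.58, 5.61 and 5.58 in wild type, which fell by 0.27 (SE 0.03, limma's adjusted p = 0.0422). After cyclic loess it was at -0.16 (adjusted p = 0.343). Htra1, a serine protease that cleaves matrix proteins, was at 5.18 and 5.02 on the knockout arrays, against 5.42 on each wild-type array (change -0.32, adjusted p = 0.0886). No aggrecanase of the list passed.

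The collagen chains that share the matrix with these genes, and the factor that drives both, gave 1 call each, while 2.18% of all genes fell at the 0.05 threshold. All 6 cartilage collagens were lower as deposited, with a median of -0.37, but 4 of 6 after cyclic loess, where Col2a1 and Col9a1 turned, and 3 of 6 with arrays centred and scaled. Col9a3, a chain of fibril-surface collagen IX, was at 6.44 and 6.47 on the knockout arrays, against 7.17, 7.01 and 7.0005 in wild type (change -0.61, SE 0.067, limma's adjusted p = 0.0422). Col2a1 was at 7.07 and 6.96 on the knockout arrays, against 7.27 on each wild-type array (adjusted p = 0.069). Sox9, the transcription factor known to drive Acan, Hapln1, Comp and Matn1, was at 5.56 and 5.63 on the knockout arrays, against 6.01, 6.02 and 6.01 in wild type (change -0.42, SE 0.029, adjusted p = 0.0229), and its partner Sox5 was at -0.043 (adjusted p = 0.697). After cyclic loess Col9a3 was at -0.37 (adjusted p = 0.177) and Sox9 at -0.27 (adjusted p = 0.118). Neither passed under any of the 4 scalings or without any 1 wild-type array. With the array date as a block, limma's adjusted p was 0.0797 for Col9a3 and 0.0603 for Sox9. Without genes whose wild-type values were all identical, it was 0.0425 for Col9a3 and 0.0543 for Sox9.

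**Figure D4:**
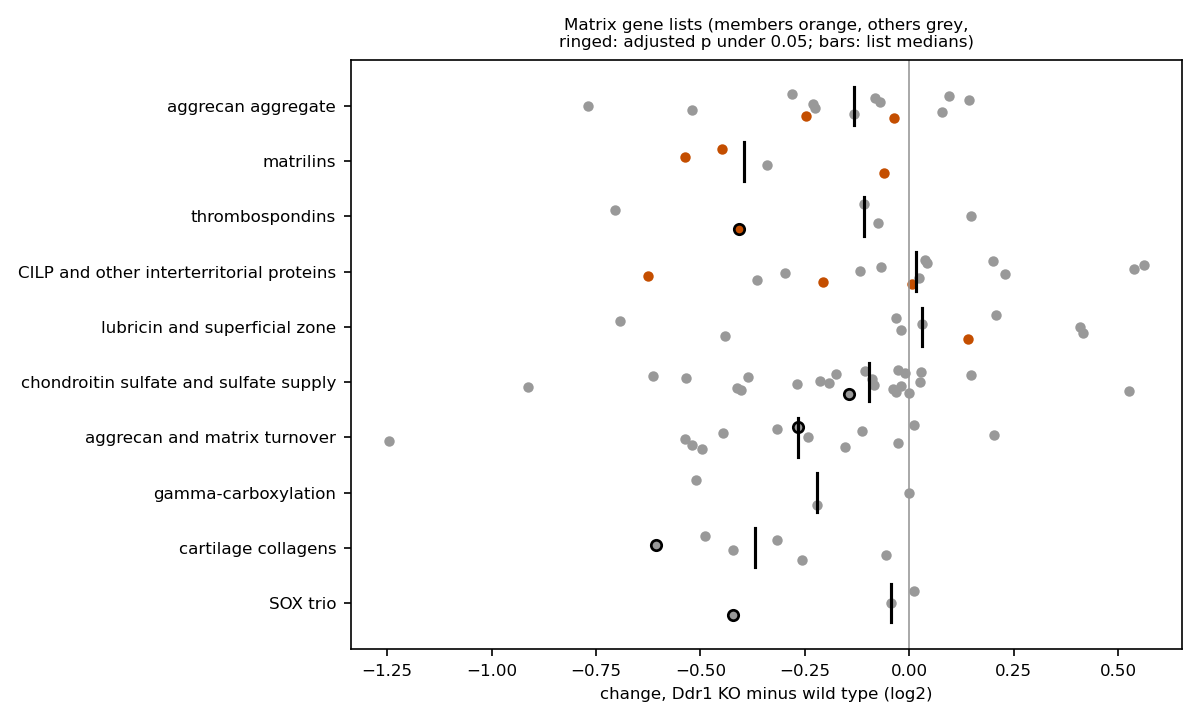
Change of each gene, knockout minus wild type, on the log2 scale, by list, with members in orange, other genes in grey, rings at adjusted p under 0.05 and black bars at list medians. The medians run from -0.395 for the matrilins to 0.031 for the superficial zone, and ringed genes all lie below 0 as deposited, of which Xylt1 turned above 0 under cyclic loess and when the centred arrays were scaled.

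The genes closest in pattern were found by the root mean square difference over the 5 arrays, each gene taken relative to its wild-type mean. For Comp these were H4c4 (0.0228), Itpripl2 (0.0233) and Ttc1 (0.0237), and for Acan Nubp2 (0.00972), Uts2r (0.0113) and Rin1 (0.0117). For Prg4 they were B2m (0.0676), Ugp2 (0.121) and Mgp (0.126), of which Mgp, the matrix Gla protein, is on the interterritorial list. Among the members, the closest pair beside the nearly flat Matn1 and Cilp was Comp and Matn4, at 0.117.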

How the data were processed

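Total RNA of condylar cartilage was biotin-labelled and hybridised to 1 array per mouse, per the labels' protocols. The deposited table holds log2 values that the authors made with Affymetrix Expression Console and RMA, per the submitters' processing notes. No tool version or genome build is given in the sources used here. RMA corrects background, quantile-normalises arrays and summarises probes by median polish, which can return identical values for several arrays.

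The table has 35556 rows. Rows with exactly 1 symbol in the platform annotation were kept and the brightest row stood for a gene, leaving 19938 genes, 19856 of them matched by identifier to GRCm38.p6. Each member had 1 row. Limma 3.58.1 in R 4.3.3 (lmFit, eBayes) compared 2 knockout with 3 wild-type arrays, two-sided, without covariates. Detection calls were not used. On simulated data for that comparison with 19938 genes and 200 changed, the fit recovered 55% of changes of 1 log2 unit and 78% of changes of 2. The simulated noise was normal, with the same spread on knockout and wild-type arrays and no tied values. The arrays here differ in both respects, so these rates need not hold for them.

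Named genes are the members, calls on the matrix lists, or up to 2 genes of lowest p where under 2 were called, and the 3 nearest patterns to Acan, Comp and Prg4. Tnnc2, Acta1, Mb, Cidec and the sensory receptor genes were chosen after values were seen. Members and lists were chosen with earlier results of these data known. Of the list genes, Impad1 and Hyal1 were not analysed here. Alternatives covered the array date, scaling, rows, filters, variance model and each array left out.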

Additional observations from a re-analysis of the deposited data

How the results depend on the processing

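The count of members that fell, 1, was unchanged with rows averaged, all rows tested, genes above the median level only, eBayes with trend and robust eBayes. It was 0 with the array date as a block, after cyclic loess or quantile normalisation, with arrays centred on the median or centred and scaled, and with genes whose wild-type values were not all identical, where Comp had adjusted p = 0.0596. Leaving out 1 array gave 0 to 8 falls and 0 to 2 rises among the members: 0 falls without any 1 wild-type array, 4 falls and 2 rises without knockout 2, and 8 falls without knockout 5. A lone knockout array was taken to vary like wild type, where 5 members have a spread of 0. In both fits with a lone knockout array, rises and falls over all genes were also far more numerous than with all arrays. The member counts of those fits are therefore not read as changes of these genes. Over all genes, 309 rose and 435 fell, with 0 and 0 under the date block, cyclic loess and quantile normalisation (at an unadjusted p under 0.05, 1647, 1596 and 1038 higher and 2182, 2559 and 3071 lower), 90 and 68 with arrays centred and scaled, and 55 rises above the median level. Arrays centred on the median gave 343 rises and 292 falls. Leaving out 1 array gave 0 to 3930 rises and 0 to 6069 falls.

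Acan turned to 0.043 with the date block, 0.046 with arrays centred and scaled, 0.036 centred on the median, 0.057 after cyclic loess and 0.52 without knockout 2, and was -0.59 without knockout 5. Cilp turned to -0.083 without knockout 5 and was 0.096 without knockout 2, Cilp2 to 0.11 with arrays centred and scaled and 0.0069 after cyclic loess, Hapln1 to 0.0066 without knockout 2 (-0.50 without knockout 5), and Matn1 to 0.012 with arrays centred on the median. The cause was not tested. Scalings added after seeing the data put both knockout values below wild type for 5 members after cyclic loess or quantile normalisation, with Matn1 and Matn3 joining, and above it for 1 member, Cilp, under each of the 4 scalings. The same count over all genes was not made under these scalings, so these member counts have no share of all genes beside them. The genotypes share no replicate number, and the array date, which each genotype spans, served as the block. With 5 arrays, their number limits the precision.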

Other observations

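Values that recur across genes were counted on each array. Of the 19938 genes, 27.1% in knockout 2 and 31.2% in knockout 5 shared their exact value with at least 1 other gene on the same array, against 44.2%, 49.8% and 53.6% in wild-type mice 3, 4 and 6. The distinct values numbered 15461 and 14697 in knockout, against 12267, 11194 and 10552 in wild type. On wild-type arrays, Sox9 shared its value with 7 to 26 other genes, and Col2a1, Col9a3, Xylt1 and Hyal2 with none.

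The 1194 receptor genes of smell and pheromone sensing had a median signal of 4.27 and 4.31 in knockout 2 and 5, against 3.82, 3.95 and 4.00 in wild type. Of them 1038 had a change above 0, with a median of 0.397.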
